A study of Citrus maxima and Citrus sinensis with 4 samples.

Results

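The miR396 loci of Citrus leaves are the 4 precursor loci, of 699 in the deposited miRNA table, whose homology label names miR396 with no further digit. They were scaffold_1_155615 (labelled ath-miR396a), scaffold_1_74403 (ptc-miR396e-3p), scaffold_1_74406 (zma-miR396g-3p, called miR396g in the study) and scaffold_3_359153 (gma-miR396b-3p). All 4 had reads in every library. The leaves came from seedlings of C. sinensis ('Xuegan', sweet orange) and C. grandis (sour pummelo) in sand culture, given B-toxic nutrient solution with 400 μM H3BO3 or control solution with 10 μM H3BO3 for 15 weeks. The 4 libraries were B-toxic C. sinensis, control C. sinensis, B-toxic C. grandis and control C. grandis. Fully expanded leaves were taken at a fixed height of the plants and the RNA of 5 replicates was mixed before each library was made, so each condition had 1 library and no replicates. The labels give transplanting at 5 weeks and 10 further weeks before treatment, whereas the methods give seedlings of 11 weeks. The table holds miRNA loci and no mRNA, so leaf identity was not checked against marker genes.

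Plant miRNAs are cut from the stem of a hairpin transcript as a duplex. The guide strand is kept in a silencing complex, and the passenger strand (the miRNA star) is mostly lost. In Arabidopsis, the 5′ strand of the miR396 hairpin guides the cleavage of mRNAs of growth-regulating factors, transcription factors that keep leaf cells dividing together with their GIF co-activators. There miR396 accumulates as the leaf matures and cell division ends. Its transcription is raised by TCP factors, which are themselves targets of miR319. The mRNAs of growth-regulating factors were not part of the table.

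The mature sequences are shown because the labels alone do not tell which strand of the hairpin each locus represents. They are read 5′ to 3′ from the deposited table, with the seed (bases 2 to 8) in capitals:
scaffold_1_155615 (miR396a): uUCCACAGcuuucuugaacug
scaffold_1_74403 (miR396e-3p): cUCAAGAAagcugugggaga
scaffold_1_74406 (miR396g-3p): gUUCAAGAaagcuguggaaaa
scaffold_3_359153 (miR396b-3p): uCUCAAGAcuuagugagagcucuc
The first is the 5′ strand, 21 nt long and starting with U. The others, of 20, 21 and 24 nt, lay toward the 3′ end of their precursors. Each sequence was listed at 1 locus and no other locus of the table shared any of the 4 seeds. No other locus had a mature sequence within 3 mismatches of any of them, on either strand, over at least 17 aligned bases.

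The 5′ strand locus and scaffold_1_74406 were the opposite strands of a common hairpin region. The precursors are printed with the mature sequence in capitals to show this:
scaffold_1_155615: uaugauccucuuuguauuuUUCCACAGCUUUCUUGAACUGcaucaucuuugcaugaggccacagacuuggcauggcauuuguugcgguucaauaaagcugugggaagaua
scaffold_1_74406: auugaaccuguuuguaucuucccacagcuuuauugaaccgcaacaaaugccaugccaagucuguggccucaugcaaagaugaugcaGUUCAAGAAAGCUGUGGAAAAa
The precursor of scaffold_1_74406 is 108 nt long, and its reverse complement matched positions 17 to 110 of the 110 nt precursor of scaffold_1_155615 without a gap or mismatch, a shared stretch of 94 nt. The mature sequence of scaffold_1_155615 lay at positions 20 to 40. That of scaffold_1_74406 lay opposite positions 18 to 38, so that 19 bases of it were the exact reverse complement of miR396a. Of the 699 loci, 20 (2.86%) formed 10 such pairs, with at least 40 nt shared on opposite strands. The rarer strand had 2.26 reads per 1000 of the other in the miR396 pair (82 and 36302 reads over the 4 libraries), against 29.96 to 1000 per 1000 in the other 9 pairs. The pairs at 1000 per 1000 had equal counts on both strands, of 1, 11 and 151 reads.

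**Figure D1:**
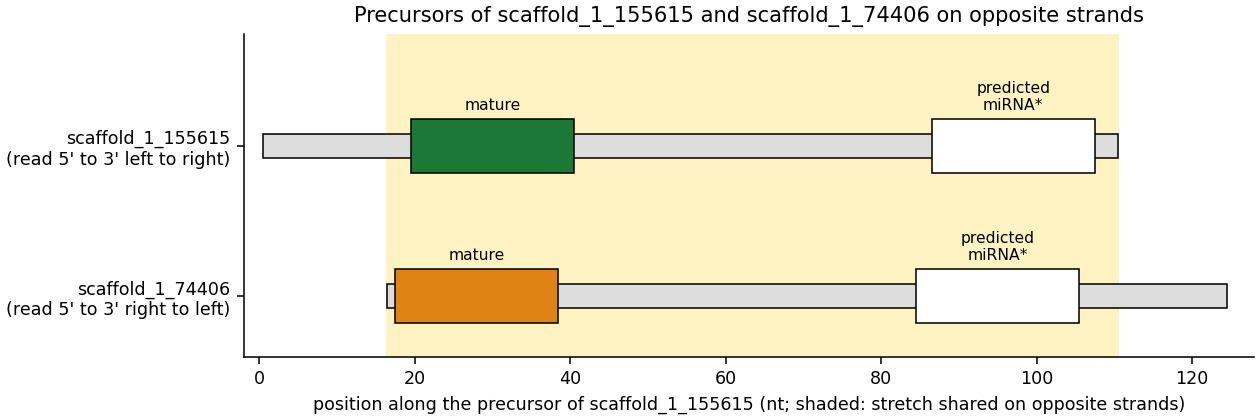
Map of the precursors of scaffold_1_155615 and scaffold_1_74406, with the position along the precursor of scaffold_1_155615 in nt on the x axis, the precursors as grey bars, mature sequences as coloured boxes, passenger strands predicted from the folds as white boxes and the 94 nt shared on opposite strands shaded. The mature boxes, at positions 20 to 40 and 18 to 38, cover nearly the same bases of the hairpin.

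RNAfold placed the passenger strand of scaffold_1_155615 at positions 87 to 107 of its precursor, by the rule of a 2 nt overhang at each 3′ end. Its sequence is shown because scaffold_1_74406 and scaffold_1_74403 both resemble it:
predicted passenger strand of scaffold_1_155615: guucaauaaagcugugggaag
The mature sequence of scaffold_1_74406 differed from it by U7G, G18A and G21A, counted from its 5′ end with the base of the passenger strand first. That of scaffold_1_74403 differed by U2C, U7G, A20G and G21A. Between both loci there were 3 differences over 20 aligned bases, U2C, A18G and A20G, counted from the 5′ end of scaffold_1_74406. The 24 nt sequence of scaffold_3_359153 had 9 to 11 mismatches to each of the other mature sequences on the same strand, over 18 to 20 aligned bases. It thus carried a miR396 label with little of a miR396 sequence.

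The folds set the loci apart as well. The precursor of scaffold_1_155615 folded at −47.5 kcal/mol, or −0.43 kcal/mol per nt, and 19.6% of the 699 precursors had a lower value per nt. In it 95.2% of the mature bases were paired with the other arm. The antisense precursor of scaffold_1_74406 folded at −34.2 kcal/mol with 76.2% of its mature bases paired. Scaffold_1_74403 had 55.0% paired and scaffold_3_359153 had 20.8%, against a median of 75.0% over the 699 loci. For scaffold_1_74403 no passenger strand could be placed by the overhang rule, so its 3p label was not borne out by its fold. Only its deposited precursor of 108 nt was folded, with the mature sequence from position 71. A 5′ arm further upstream would not have been seen. The precursor of scaffold_1_74403 is printed because it holds no counterpart of the miR396 5′ strand, the closest stretch having 10 mismatches over 21 nt:
scaffold_1_74403: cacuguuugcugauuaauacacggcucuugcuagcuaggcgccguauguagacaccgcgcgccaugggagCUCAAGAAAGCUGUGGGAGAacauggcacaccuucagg

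The table also gives all reads on each precursor, over the 4 libraries together. At scaffold_1_155615 these were 50233 reads, of which 13931 (27.7%) were not the mature sequence. This was the largest number of such reads at any of the 699 loci, and such reads can be the passenger strand, length variants or other fragments. Scaffold_1_74406 had 43 other reads of 125 (34.4%). At scaffold_1_74403 all 1371 reads were the mature sequence, and at scaffold_3_359153 all 11 were, as at 153 of the 699 loci. The median share of other reads was 4.17%. How reads were assigned to the strands of a shared region is not stated, so it is unknown whether the other reads of scaffold_1_155615 and scaffold_1_74406 were kept apart by strand. The other reads were not given per library, so no comparison of them between conditions was made.

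The 699 loci held 243277 mature reads in B-toxic C. sinensis, 346600 in control C. sinensis, 325441 in B-toxic C. grandis, plus 373890 in control C. grandis. Levels are given as RPM, the reads of a locus relative to 1000000 of these mature reads, which were 2.97% to 3.90% of the clean reads that the study lists. A count of 0 would have allowed up to 3 reads, or 8.02 to 12.3 RPM. Intervals are exact 95% intervals that cover counting error only, since PCR copies were not told apart and no library was repeated. Tests on the reads of 2 libraries compared those libraries and not the conditions. In RNA of whole leaves, fewer cells of a type and less of a miRNA per cell cannot be told apart.

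The 5′ strand miR396a was among the most abundant leaf miRNAs, ranking between 6th and 8th of the 699 loci in each library. At scaffold_1_155615 there were 5743 reads (23607 RPM, 23007 to 24218) in B-toxic C. sinensis and 10013 reads (28889 RPM, 28334 to 29452) in control C. sinensis. B-toxic C. grandis had 9174 reads (28189 RPM, 27624 to 28764) and control C. grandis had 11372 reads (30415 RPM, 29867 to 30971). The highest RPM was 1.29 times the lowest. B-toxic C. sinensis was lowest in RPM, but the order of the libraries changed with the scaling, B-toxic C. grandis being lowest with TMM and control C. grandis with DESeq2 size factors.

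The sequence of scaffold_1_74403 was present at a few percent of that level, ranking 52nd to 66th. It had 315 reads (1295 RPM, 1156 to 1446) in B-toxic C. sinensis and 319 reads (920.4 RPM, 822.2 to 1027) in control C. sinensis. In C. grandis it had 407 reads (1251 RPM, 1132 to 1378) in the B-toxic library and 330 reads (882.6 RPM, 790.0 to 983.1) in the control. In RPM both B-toxic libraries thus lay above both control libraries, with intervals that did not overlap. With the 3 other scalings each B-toxic library still lay above the control of its own species, but with TMM and DESeq2 size factors B-toxic C. grandis no longer lay above control C. sinensis. Relative to control C. grandis, the log2 level of B-toxic C. grandis was 0.50 and that of control C. sinensis 0.52 with TMM, and 0.65 and 0.68 with DESeq2 size factors.

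The antisense sequence of scaffold_1_74406 was rare, with 20 reads (82.2 RPM, 50.2 to 127.0) in B-toxic C. sinensis and 29 reads (83.7 RPM, 56.0 to 120.2) in control C. sinensis. B-toxic C. grandis had 25 reads (76.8 RPM, 49.7 to 113.4) and control C. grandis had 8 reads (21.4 RPM, 9.24 to 42.2). Control C. grandis stood apart from the other 3 libraries, whose intervals overlapped each other. Scaffold_3_359153 had 2 reads in B-toxic C. sinensis, 5 in control C. sinensis, 1 in the B-toxic library of C. grandis and 3 in its control. Any difference between its libraries was not detectable at this depth.

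**Figure D2:**
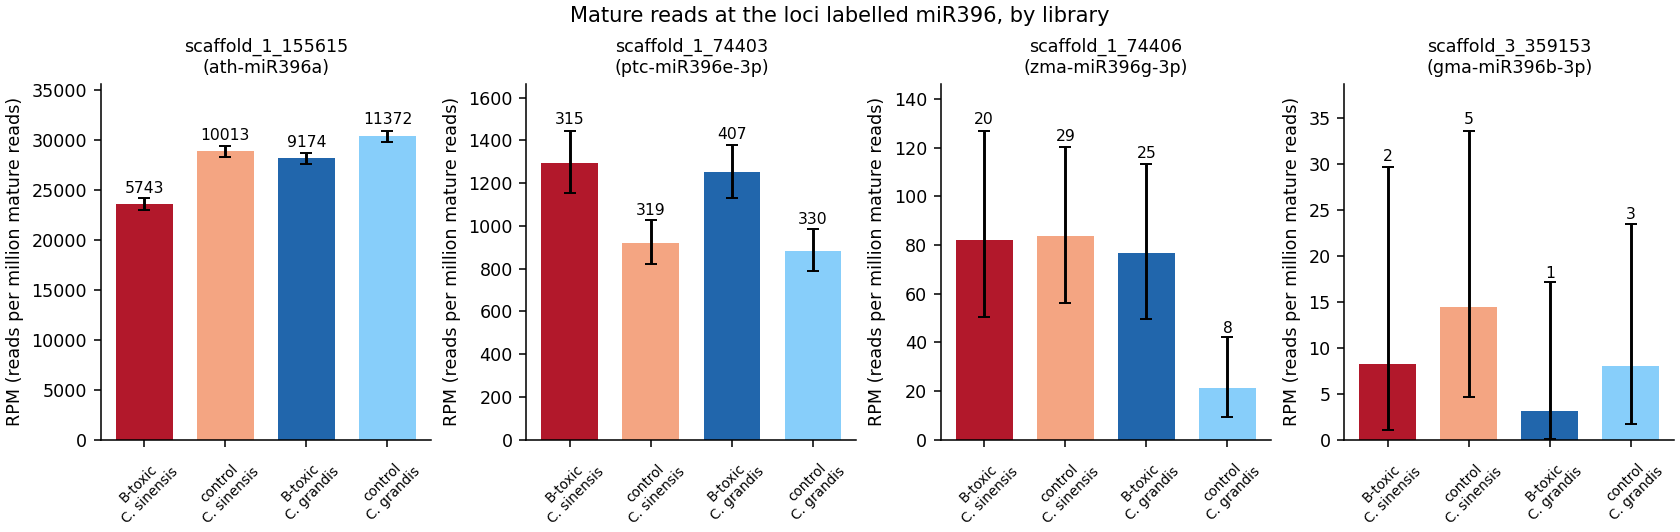
RPM (reads per 1000000 mature reads) at each locus labelled miR396 in the 4 libraries, as bars from 0 with exact 95% intervals and the read count above each bar. Scaffold_1_155615 ranges from 23607 to 30415 RPM, scaffold_1_74403 is higher in each B-toxic library than in the control of its species, and scaffold_1_74406 is lowest in control C. grandis at 21.4 RPM.

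The study compared B-toxic with control leaves of each species to find miRNAs that respond to excess B. Calls required both an FDR under 0.01 and a change of 2-fold or more between the libraries. By this rule, 1.88% of 640 tested loci were called in C. sinensis and none of the 4 miR396 loci. In C. grandis, 7.05% of 638 loci were called, and of the miR396 loci only scaffold_1_74406 was, against 3.76% of all loci called higher.

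In C. grandis, the antisense locus scaffold_1_74406 was 3.59-fold higher in the B-toxic library (25 reads) than in the control (8 reads), a log2 ratio of 1.84 (95% interval 0.65 to 3.20). Fisher's exact test gave an FDR of 0.00483. It was called under 9 of 11 alternatives, with an FDR between 0.000942 and 1 over all of them. It was not called with an assumed coefficient of variation of 0.2 between libraries (FDR 0.229) or 0.4 (FDR 1). In C. sinensis its log2 ratio was −0.03 (−0.92 to 0.85), with 20 reads in the B-toxic library and 29 in the control. Subtracting the B effect of C. grandis, that of C. sinensis differed by −1.87 (−3.48 to −0.33) on the log2 scale. This did not pass the exact conditional test (FDR 0.0672). The study also assayed miR396g by stem-loop qRT-PCR in biological replicates. It did not list miR396g among the miRNAs whose qRT-PCR and sequencing differed. A predicted target of miR396g was significantly lower under B-toxicity in C. sinensis by qRT-PCR and not significantly changed in C. grandis.

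The sequence of scaffold_1_74403 was 1.41-fold higher under B-toxicity than in the control in C. sinensis. On the log2 scale this was 0.49 (0.26 to 0.72), with an FDR of 0.000271 by Fisher's exact test. In C. grandis it was 1.42-fold higher, or 0.50 on the log2 scale (0.29 to 0.72), with an FDR of 2.93e-05 by Fisher's exact test. Both values passed the FDR but not the ratio limit, where 8.91% of all loci in C. sinensis and 17.6% in C. grandis passed the FDR alone. With an assumed coefficient of variation of 0.2 between libraries the FDR was 1 in C. sinensis and 0.848 in C. grandis. In C. sinensis the FDR was 0.0293 with TMM and 0.0463 with DESeq2 size factors, above the limit. The difference between the species was −0.01 (−0.33 to 0.31), so that an equal effect and differences up to these bounds were both within counting error.

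For the guide strand at scaffold_1_155615, the depth made small ratios pass the FDR. In C. sinensis its log2 ratio was −0.29 (−0.34 to −0.24), with an FDR of 6.03e-34 by Fisher's exact test, and it had the same sign under all 3 other scalings. In C. grandis the log2 ratio was −0.11 (−0.15 to −0.07), with an FDR of 4.80e-07 by Fisher's exact test, but with the libraries scaled to clean reads it was 0.14 and with DESeq2 size factors 0.04, so its direction was set by the scaling. The B effect differed between the species by −0.18 (−0.24 to −0.12, FDR 1.05e-07 by the exact conditional test), where 13.3% of 579 loci differed. With the 3 other scalings and with each sequence counted once, the difference was −0.50 to −0.14 and was called. It was not tested with an assumed coefficient of variation between libraries, and at 0.2 the B effect of this locus had an FDR of 1 in each species.

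**Figure D3:**
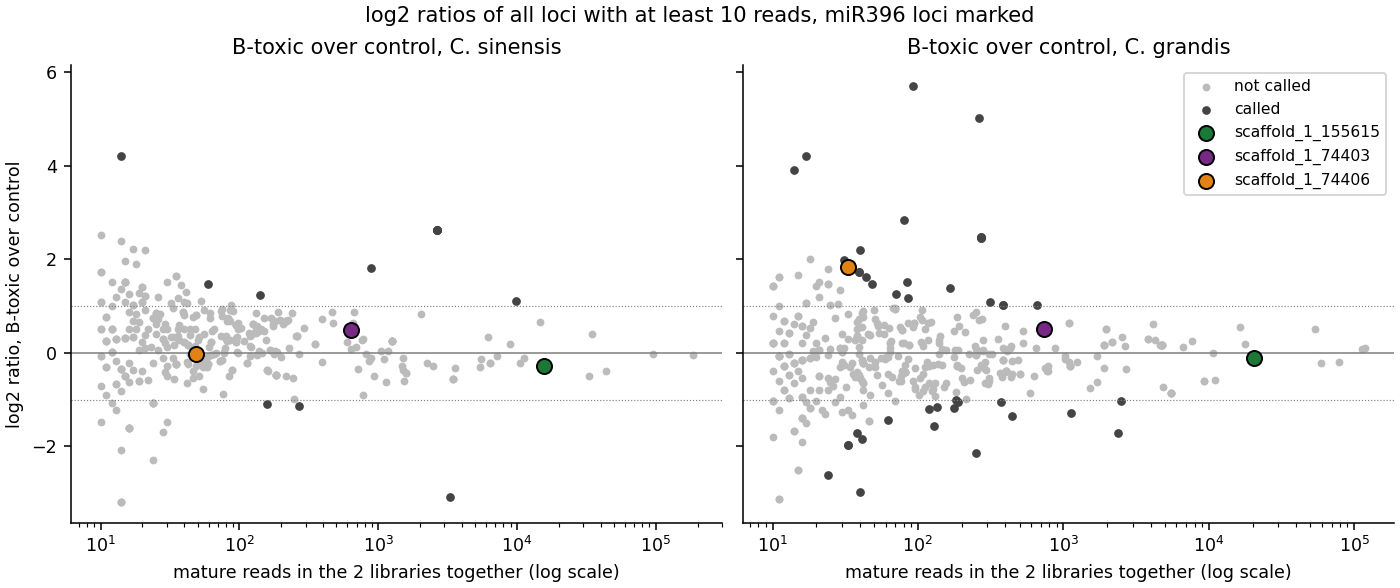
log2 ratio of B-toxic over control (y axis) against the mature reads of both libraries together (x axis, log scale) for the 372 loci of C. sinensis and 428 of C. grandis with at least 10 reads and none at 0, dotted lines marking the ratio limit of 2. Among the miR396 loci, marked in colour, scaffold_1_74406 in C. grandis (1.84) lies beyond the limit.

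The species were compared at each B level, since the study set C. sinensis as B-tolerant against the intolerant C. grandis. Between the control libraries, 24.7% of 659 loci were called, and of the miR396 loci scaffold_1_74406 was, against 6.68% of all loci called higher in C. sinensis. It was 3.91-fold higher in control C. sinensis (29 reads) than in control C. grandis (8 reads), a log2 ratio of 1.97 (0.80 to 3.31, FDR 0.000845 by Fisher's exact test). This rests on the same 8 reads of control C. grandis as the B effect in that species. Over the alternatives the FDR lay between 2.98e-06 and 0.382, and the locus was not called with an assumed coefficient of variation of 0.2 (FDR 0.0359) or 0.4. Between the B-toxic libraries its log2 ratio was 0.10 (−0.83 to 1.00), and its sign changed with the scaling (−0.29 to 0.42).

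Between the B-toxic libraries 24.5% of 645 loci were called, none of them labelled miR396. By the FDR alone, 30.4% of loci passed between the B-toxic and 31.7% between the control libraries. Scaffold_1_74403 had log2 ratios of C. sinensis over C. grandis of 0.05 (−0.17 to 0.27) under B-toxicity and 0.06 (−0.17 to 0.29) in the control, and over the alternatives these ran from −0.34 to 0.37 and from −0.12 to 0.68. Scaffold_1_155615 had −0.26 (−0.30 to −0.21) and −0.07 (−0.11 to −0.04) in that order. These turned to 0.06 and 0.39 with TMM and to 0.05 and 0.54 with DESeq2 size factors, so no direction between the species was given by these counts. Scaling by clean reads, TMM or DESeq2 size factors moved every log2 ratio of C. sinensis over C. grandis alike, by −0.39 to 0.32 between the B-toxic and by −0.08 to 0.62 between the control libraries. Within a species it moved B-toxic over control by −0.16 to −0.06 in C. sinensis and by −0.0048 to 0.25 in C. grandis.

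**Figure D4:**
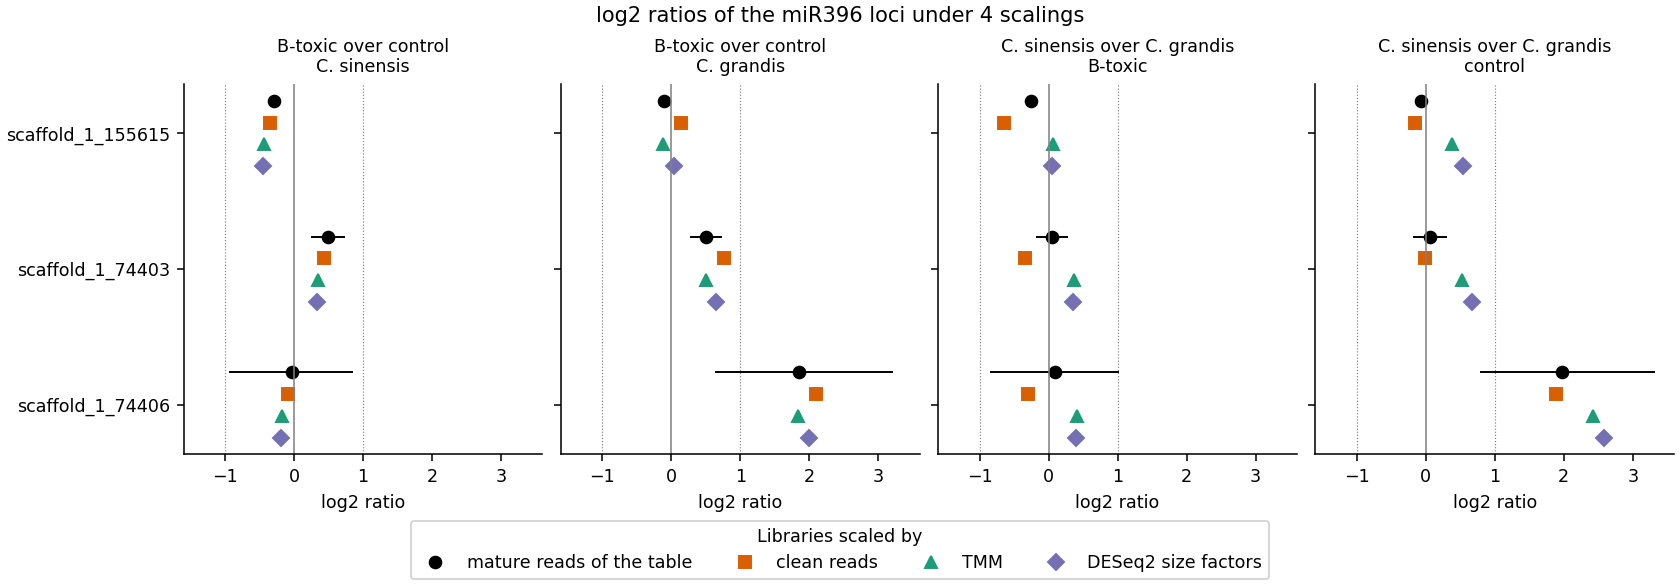
log2 ratios (x axis) of the 3 miR396 loci with the most reads in each of the 4 comparisons, with libraries scaled by the mature reads of the table (black, exact 95% interval as a line), by clean reads, by TMM or by DESeq2 size factors. Dotted lines mark the ratio limit of 2. Scaffold_1_155615 changes sign between scalings in 3 of the 4 comparisons.

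Ratios between miR396 loci of the same library need no scaling. Shares were taken of the mature reads of all loci labelled miR396, without the 13931 other reads on the precursor of scaffold_1_155615. The guide strand made up 94.5% (93.9 to 95.02) of these mature reads in B-toxic C. sinensis and 96.6% (96.2 to 96.9) in control C. sinensis. Its share was 95.5% (95.1 to 95.9) in B-toxic and 97.1% (96.8 to 97.4) in control C. grandis. It was thus lower in the B-toxic library of each species, by more than the counting error.

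Most of the remaining mature miR396 reads were of scaffold_1_74403. Per 1000 reads of scaffold_1_155615 it had 54.8 reads (48.8 to 61.4) in B-toxic C. sinensis and 31.9 (28.4 to 35.6) in control C. sinensis. In C. grandis it had 44.4 (40.1 to 49.0) in the B-toxic and 29.0 (25.9 to 32.4) in the control library. The ratio was thus 1.72-fold (1.46 to 2.02) higher under B-toxicity in C. sinensis and 1.53-fold (1.32 to 1.78) higher in C. grandis. Both intervals lay above 1, but they do not cover the spread between plants or libraries, which was not measured.

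The antisense locus scaffold_1_74406 had 3.48 reads (2.13 to 5.38) per 1000 of the sense guide strand in B-toxic C. sinensis and 2.90 (1.94 to 4.16) in control C. sinensis. In C. grandis the B-toxic library had 2.73 (1.76 to 4.03), against 0.703 (0.304 to 1.39) in the control. B-toxic over control, the ratio was 1.20-fold (0.644 to 2.20) in C. sinensis and 3.87-fold (1.69 to 9.94) in C. grandis. Against scaffold_1_74403, which resembles it in sequence, it had 63.5 reads per 1000 (38.3 to 99.7) in B-toxic and 90.9 (59.9 to 133.1) in control C. sinensis, a ratio of 0.698-fold (0.366 to 1.31). In C. grandis it had 61.4 reads per 1000 (39.3 to 92.0) in the B-toxic and 24.2 (10.4 to 48.3) in the control library, a ratio of 2.53-fold (1.09 to 6.58). The sources used here do not say how reads that fit several loci were assigned.

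**Figure D5:**
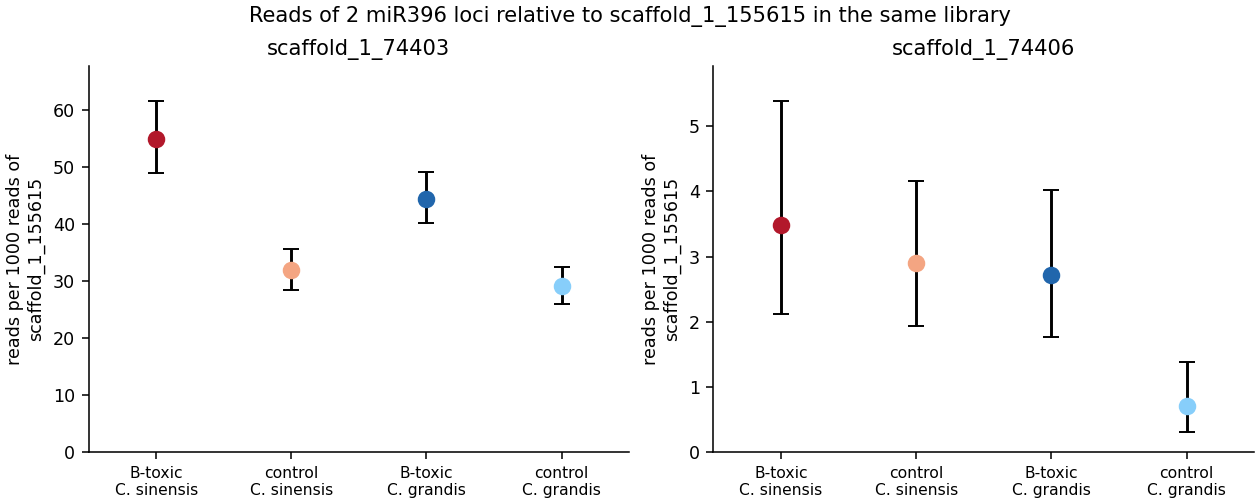
Reads of scaffold_1_74403 (left) and scaffold_1_74406 (right) per 1000 reads of scaffold_1_155615 in the same library (y axis), with exact 95% intervals, for the 4 libraries. Scaffold_1_74403 has 54.8 and 44.4 in the B-toxic and 31.9 and 29.0 in the control libraries of C. sinensis and C. grandis, and scaffold_1_74406 is lowest in control C. grandis at 0.703.

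All 4 libraries were also fitted in a common model with B treatment and species, which has 1 residual degree of freedom. For the B response shared by the species, edgeR's quasi-likelihood test called 0 of 349 loci (0.00%), with 7 at an unadjusted p below 0.05, and DESeq2 called 0 with 5. The log2 values of the miR396 loci were −0.35 for scaffold_1_155615, 0.34 for scaffold_1_74403 and 0.64 for scaffold_1_74406, each with an adjusted p of 0.901. For the species difference 31.5% of loci were called. There edgeR gave log2 values of C. sinensis over C. grandis of 1.35 for scaffold_1_74406 (adjusted p 0.148), 0.47 for scaffold_1_74403 (adjusted p 0.348) and 0.25 for scaffold_1_155615 (adjusted p 0.687), the last of which was −0.17 without TMM. Scaffold_3_359153 was removed by the filter on low counts.

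By the distance of log2 RPM centred over the 4 libraries, the sequence most like scaffold_1_155615 among 157 with at least 100 reads was scaffold_1_74299 (ath-miR171b, distance 0.22). It had 72 reads in B-toxic and 145 in control C. sinensis, and 142 in B-toxic and 165 in control C. grandis. It was followed by scaffold_2_272434, which has no homology label (0.22), and scaffold_1_162521 (ath-miR156a, 0.23), against a median distance of 0.96. Closest to scaffold_1_74403 were scaffold_3_433564 (0.17) and scaffold_2_217057 (0.25), both labelled mdm-miR171o, and the unlabelled scaffold_6_1104042 (0.31), against a median of 1.13. In the study's alignment, the sequences labelled mdm-miR171o diverge from those of miR171b. With 4 libraries, such distances only describe the profile.

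A list of 57 loci, taken by their labels, was set beside miR396. The labels name miRNA families with known roles in leaf growth, polarity and phase change. Among them are miR156, miR160, miR164, miR166, miR167, miR319 and miR393. The list also took in loci labelled mdm-miR171o, for which the study's alignment shows divergent sequences with other or no predicted targets. In C. sinensis 1 of 55 tested loci had a called increase under B-toxicity and 2 a called decrease (5.45%, against 1.88% of all loci). With DESeq2 size factors 5 of the list were called, among 12 of the whole table. In C. grandis 0 of 52 were called higher and 2 lower (3.85%, against 7.05%), and with DESeq2 size factors 1 was called, among 37 of the whole table. The median log2 ratio of the list's loci with at least 10 reads was −0.25 in C. sinensis and −0.20 in C. grandis, against 0.25 and −0.11 over all loci. The mdm-miR171o loci of that alignment had log2 ratios of 0.23 to 0.83 in C. sinensis. The median without them was not computed.

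The list included miR319, the family upstream of miR396 in Arabidopsis. In C. sinensis, scaffold_2_325210 (ath-miR319a) fell to 65 reads in the B-toxic library, against 205 reads in the control, a log2 ratio of −1.15 (−1.57 to −0.74). Scaffold_8_1339838 (gma-miR319d) rose to 88 reads, against 53 reads, a log2 ratio of 1.24 (0.73 to 1.76). The other called loci were scaffold_2_331813 (ath-miR160a, which targets mRNAs of auxin response factors) in C. sinensis, at −1.10, and 2 loci in C. grandis. There scaffold_9_1388622 (ath-miR167a, also a regulator of auxin response factors) had 743 reads in the B-toxic and 1753 in the control library, a log2 ratio of −1.04. Scaffold_5_850258 (ath-miR164a, which targets mRNAs of NAC factors of organ boundaries) had 295 and 829 reads in that order, a log2 ratio of −1.29. The study listed miR160a, in both species, among the miRNAs whose qRT-PCR and sequencing differed. It did not list miR164a or miR167a, which it also assayed. Between the species, 2 list loci were called higher and 5 lower in C. sinensis under B-toxicity (14.0%, against 24.5% of all loci). In the control 1 was higher and 3 lower (7.02%, against 24.7%), and with DESeq2 size factors 11 were called, among 142 of the whole table.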

How the data were processed

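The authors trimmed adaptors, discarded poor reads and those of other RNA types, searched miRBase 21, and predicted precursors with MTide on version 1.0 of the C. clementina genome. They deposited the count of mature reads per locus and library, without normalization, and the count of all reads per precursor. The MTide version and the handling of multi-locus reads were not given in the sources used here. No genome was used, so loci carry no coordinates.

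From the deposited counts, RPM, Fisher's exact tests (two-sided) with Benjamini-Hochberg adjustment over loci with at least 1 read in both libraries together, and exact (Clopper-Pearson) intervals of shares and log2 ratios were computed with SciPy 1.17.1. Ratios were left out where neither library had more than 3 reads. The B effects of the species were compared by an exact test of equal ratios, conditional on each locus's totals. edgeR 4.0.16 and DESeq2 1.42.0 gave scalings and the model of all libraries (filterByExpr, TMM, FDR below 0.05). Precursors were folded with RNAfold 2.7.2. Fisher's and the conditional test were checked on data simulated with counting error alone, so that check does not cover spread between libraries. The edgeR fit was checked for the species difference alone, on data simulated with an assumed spread. Other loci are named when within 3 mismatches of a member or among the 3 sequences closest in profile to each of the 2 most abundant members, and the called loci of the leaf list were named after their values were seen. The members and lists were chosen with earlier results of these data known.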

Additional observations from a re-analysis of the deposited data

Results flagged for a closer look

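The B effect on the miR396 guide strand at scaffold_1_155615 differed between the species in the exact conditional test, with a log2 difference of −0.18 (C. sinensis minus C. grandis, −0.24 to −0.12). The log2 ratios were −0.29 in C. sinensis and −0.11 in C. grandis. The spread between libraries was not measured and was not part of this test.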

How the results depend on the processing

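Without the ratio limit, 2 miR396 loci were called for B in C. sinensis, 3 for B in C. grandis, 1 between the species under B-toxicity and 2 in the control. When a coefficient of variation between libraries of 0.2 or 0.4 was assumed, 0 were called in each of the 4 comparisons. Over the whole table these 2 settings called 6 and 0 loci in place of 12 for B in C. sinensis, 10 and 3 in place of 45 for B in C. grandis, 104 and 46 in place of 158 under B-toxicity and 98 and 45 in place of 163 in the control. Without the ratio limit 57 and 112 loci were called for B in C. sinensis and C. grandis, and 21 in C. sinensis at an FDR below 0.05. For the common B response edgeR gave 1 call when TMM was left out, 4 when the filter was, and 2 when repeated sequences were merged, none labelled miR396. The log2 ratio of scaffold_1_155615 changed sign to 0.14 (clean reads) and 0.037 (DESeq2 size factors) for B in C. grandis. Between the species it turned to 0.062 (TMM) and 0.048 (DESeq2) under B-toxicity and to 0.39 (TMM) and 0.54 (DESeq2) in the control. With DESeq2 size factors the leaf list had 5 of the 12 calls of the whole table in C. sinensis, 1 of 37 in C. grandis and 11 of 142 between the controls. The Audic-Claverie and chi-square tests, a minimum of 10 reads and counting each sequence once changed no miR396 call. No library could be left out, since each condition had 1 and the common model then has no residual degrees of freedom. No analysis paired by replicate number was possible because the labels give none. The common model compared B-toxic with control libraries within each species, with species as a term.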
